A study of Mus musculus with 4 samples.

Results

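The cells described here are stromal cells of the mouse digit that carry RNA of Chad, Omd and Scube1, and they are called Chad/Omd cells below. They were chosen by measured values. A barcode had to hold at least 500 genes and 1000 unique molecular identifiers (UMIs, each one counted RNA molecule), with at most 10% of UMIs from mitochondrial genes. It had to lack Ptprc and Cdh5, hold at most 2 UMIs of Rgs5 and hold at least 2 UMIs of Pdgfra and Dcn together, which is called the stromal gate. Within the gate a cell was kept when its sum of Chad, Omd and Scube1 UMIs was at least 3 and above each of 6 other marker sums (C4b with Gdf10 and Cyp2f2, Pi16 with Dpp4 and Pcolce2, Prss35 with Spock3 and Crabp1, Scx with Tnmd and Thbs4, Ibsp with Sp7 and Alpl, and Hapln1 with Prg4 and Inhba). This kept 375 of 11674 gated cells, 3.21%, and 0.955% of the 39266 barcodes that passed the filters on genes, UMIs and mitochondrial share.

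Chad encodes chondroadherin and Omd encodes osteomodulin, small leucine-rich proteoglycans of skeletal matrix that bind collagen and, through integrins, cells; osteomodulin is made by bone-forming cells and chondroadherin by cartilage, tendon and bone. Scube1 encodes a secreted and cell-surface protein with epidermal growth factor-like repeats. The periosteum is the fibrous sheath of bone, whose inner layer holds the progenitors that build bone during growth and repair, and it lies beside tendon insertions, joint capsule and dermis in a digit.

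The tissue came from wild-type FVB/NJ mice that were 8 weeks old, and the groups differ by time after amputation through the middle phalanx (P2), a level that heals by fibrosis and does not regrow. The 4 groups were unamputated digit, and digit at 12, 17 and 28 days post-amputation (dpa), each with 1 library. Per the labels each group pooled male and female animals, and live cells that excluded propidium iodide were sorted after digestion with trypsin and collagenase I, so cells that this digestion does not release from bone or dense matrix are not represented. The question was how the cells of the stump tissue differ from those of the intact digit.

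The libraries held 8813 to 16045 barcodes and 92313847 to 197140774 UMIs. With 1 library a group there is no replicate check: no test was possible, and every interval below is a 95% interval for counting error only. Between 19 and 87 barcodes were shared by any pair of libraries, and no Chad/Omd cell had the barcode of another. The 18 Chad/Omd cells at 12 dpa stood apart: 13 of them held 92 Xist UMIs and none held a Y-linked UMI (Uty, Kdm5d, Eif2s3y or Ddx3y). The Chad/Omd cells of the other libraries held 0 Xist UMIs and 616, 356 and 260 Y-linked UMIs in unamputated, 17 and 28 dpa, against the label of pooled sexes. Time after amputation and sex therefore cannot be told apart in any comparison with 12 dpa, and the 12 dpa values rest on 237023 UMIs in all, where 1 UMI is 4.22 CPM (the number of a gene's UMIs divided by all UMIs of the cells summed, times 1000000).

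Omd lies in a tandem row of proteoglycan genes on chromosome 13 (GRCm38, plus strand): Aspn at chr13:49544443-49567565, Omd at chr13:49582462-49592822 and Ogn at chr13:49608046-49624501. Chad lies at chr11:94565047-94569127 on the plus strand, inside the span of Acsf2 (chr11:94557102-94601871) on the minus strand, and Scube1 at chr15:83604999-83725021 on the minus strand. The 250 bases before the start sites of Chad, Omd and Ogn are shown because Chad and Omd chose the cells, while Ogn, their neighbour on chromosome 13, was not in the rule and was among the genes most enriched in these cells. The windows are from RefSeq on GRCm38.p6 and read 5′ to 3′ toward the start site, at chr11:94564797-94565046, chr13:49582212-49582461 and chr13:49607765-49608014. Capitals mark matches to TATAAA or its reverse TTTATA, and to the RUNX letters TGTGGT or their reverse ACCACA.
Chad: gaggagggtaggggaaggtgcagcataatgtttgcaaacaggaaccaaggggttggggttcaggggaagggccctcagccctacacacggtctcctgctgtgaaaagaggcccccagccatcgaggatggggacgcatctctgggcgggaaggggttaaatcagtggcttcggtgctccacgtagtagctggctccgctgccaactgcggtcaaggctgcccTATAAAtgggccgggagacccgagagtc
Omd: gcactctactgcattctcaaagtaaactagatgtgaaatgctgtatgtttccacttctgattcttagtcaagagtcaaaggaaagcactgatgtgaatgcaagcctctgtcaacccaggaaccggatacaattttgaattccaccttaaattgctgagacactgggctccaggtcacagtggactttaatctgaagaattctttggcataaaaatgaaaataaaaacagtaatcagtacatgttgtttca
Ogn: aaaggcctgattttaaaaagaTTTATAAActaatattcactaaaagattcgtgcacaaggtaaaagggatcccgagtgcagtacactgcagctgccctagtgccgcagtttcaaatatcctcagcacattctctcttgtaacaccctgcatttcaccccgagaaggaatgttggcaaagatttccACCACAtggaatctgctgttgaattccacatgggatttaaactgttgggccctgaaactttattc
The Chad window held TATAAA beginning 28 bases before the start and no RUNX letters. The Omd window held neither. The Ogn window held ACCACA beginning 65 bases before the start, and an overlapping TTTATA and TATAAA, of which TATAAA began 227 bases before the start. Of 32851 promoter windows of the same length, 14.0% held the RUNX letters and 12.4% the TATAAA letters on either strand. Of the 20 genes named below as most enriched, 13 had a window and 2 of these, Ogn and Rbp4, held the RUNX letters. These are descriptions of letters, not of binding.

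The 3 genes of the rule differed in their balance between libraries. Summed over the Chad/Omd cells, Chad stood at 158 CPM in unamputated (139 to 178), 173 CPM in the library of 12 dpa (124 to 235), 524 CPM in that of 17 dpa (486 to 565) and 958 CPM in that of 28 dpa (902 to 1017). Omd stood at 740, 300, 650 and 535 CPM in the same order, and Scube1 at 84.6, 42.2, 50.8 and 102 CPM. Chad was above Omd at 28 dpa and Omd above Chad in the other 3 libraries. These levels describe the selection: the 3-UMI minimum is a higher CPM minimum in shallow cells, and the 28 dpa cells were the shallowest. The gene with most UMIs in a cell was Chad in 14 of 86 cells in unamputated (16.3%), 5 of 18 at 12 dpa (27.8%), 46 of 125 at 17 dpa (36.8%) and 76 of 146 at 28 dpa (52.1%). It was Omd in 60, 11, 73 and 62 cells and Scube1 in 10, 2, 4 and 6 cells, with the rest tied.

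A Chad UMI was found in 38.4%, 33.3%, 58.4% and 74.0% of the Chad/Omd cells, and in 0.356% to 1.24% of cells with a Ptprc UMI, a leukocyte gene, which should lack Chad. As the rule asked for 3 UMIs of these genes, the first shares follow from the selection, and the Ptprc-positive cells give the background alone. For Omd the shares were 91.9%, 72.2%, 87.2% and 80.1%, against 1.89% to 3.50% of Ptprc-positive cells. Median depths in the order unamputated, 12, 17 and 28 dpa were 17617.5, 11463.5, 10022 and 6924 UMIs in Chad/Omd cells and 9126, 7513, 7905.5 and 7553 UMIs in Ptprc-positive cells. Chad/Omd cells held 56.6%, 22.7%, 52.8% and 61.8% of all Chad UMIs in the gate, so most gated Chad transcripts at 12 dpa were in other cells. Both genes were found together in 30, 3, 59 and 82 cells.

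**Figure D1:**
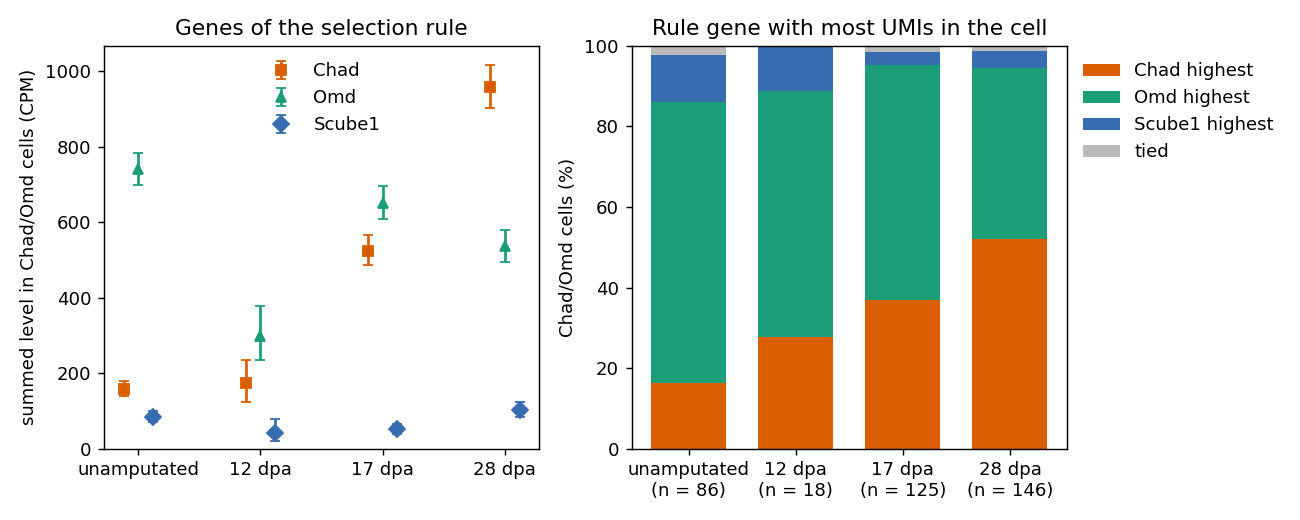
Left, summed CPM of Chad, Omd and Scube1 in Chad/Omd cells of each library, with 95% Poisson intervals; right, the percentage of these cells in which each gene had the most UMIs (n is the number of cells). Chad goes from 158 CPM in unamputated to 958 CPM at 28 dpa, and the share of cells with Chad highest from 16.3% to 52.1%.

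The threshold cut through a larger population. Of gated cells, 402, 128, 409 and 393 in unamputated, 12, 17 and 28 dpa had a sum of 3 or more, and 86, 18, 125 and 146 were kept. The osteoblast sum of Ibsp, Sp7 and Alpl equalled or passed the Chad, Omd and Scube1 sum in 200, 20, 179 and 116 of these cells, and the tendon sum of Scx, Tnmd and Thbs4 in 42, 49, 23 and 39. The osteoblast sum was the most frequent rival in unamputated, 17 and 28 dpa, and the tendon sum at 12 dpa. Cells just inside the threshold, with a sum of exactly 3, numbered 4, 5, 11 and 16, and cells just outside it, with a sum of 2 above each other sum, numbered 7, 4, 8 and 12. Ogn stood at 538, 1188, 760 and 573 CPM just inside and at 562, 662, 721 and 631 CPM just outside. Runx2 stood at 11.7, 247, 840 and 774 CPM just inside and at 929, 706, 544 and 218 CPM just outside, so the threshold did not separate cells with and without this osteoblast factor in 1 direction.

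Of the gated cells of unamputated tissue, 3.63% were Chad/Omd cells (2.92% to 4.47%). The share was 0.809% at 12 dpa (0.480% to 1.27%), and the later libraries had 4.27% (17 dpa; 3.56% to 5.06%) and 3.52% (28 dpa; 2.98% to 4.12%). The 12 dpa interval lay below the other 3, and those 3 overlapped. After each gated cell was thinned to 3000 UMIs the shares were 2.23%, 0.454%, 2.63% and 2.34%, which kept 12 dpa lowest. Of all barcodes that passed the filters they were 0.719%, 0.259%, 1.44% and 1.25%. Each share comes from 1 dissociation, and fewer such cells in the digit and fewer released from the tissue cannot be told apart.

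Beyond the genes of the rule, Chad/Omd cells held more RNA of single secreted inhibitors (Wif1 and Fst) and matrix genes (Comp and Ogn, the neighbour of Omd) than the other gated cells of the same library. Matrix gene groups differed. In unamputated, 12, 17 and 28 dpa, 1 of 6, 1 of 7, 2 of 6 and 3 of 6 small leucine-rich proteoglycans outside the rule were at least 2-fold higher and none lower. Of collagen genes, 1 of 20, 2 of 20, 2 of 20 and 2 of 18 were higher and 8, 2, 3 and 3 lower, and of elastic fibre and matricellular genes, 2 of 25, 2 of 25, 3 of 25 and 4 of 23 were higher and 11, 4, 7 and 7 lower. Of 2414 genes at 50 CPM or more in Chad/Omd cells of all 4 libraries, 17 were at least 2-fold higher in every library. This count rests in part on single cells: at 12 dpa 78.9% of Wif1 UMIs and 45.5% of Ptgis UMIs lay in 1 cell. In single libraries 4.50%, 2.34%, 3.70% and 5.40% of genes were at least 2-fold higher than in other gated cells in unamputated, 12, 17 and 28 dpa, and 4.65%, 5.17%, 3.42% and 4.72% at least 2-fold lower. Because the rule used the same cells, these values are a description and carry no test.

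Wif1, a secreted inhibitor that binds Wnt proteins, stood at 178, 80.2, 227.9 and 439 CPM in Chad/Omd cells of unamputated, 12, 17 and 28 dpa. In the other gated cells it was at 47.0, 12.5, 46.6 and 55.3 CPM. At 12 dpa 78.9% of its UMIs lay in 1 cell. Wnt16, a Wnt ligand described in cortical bone, stood at 158, 110, 199 and 124 CPM against 31.0 to 35.2 CPM in the others. At 28 dpa the osteoblast-sum cells held 122 CPM of Wnt16, close to the 124 CPM of Chad/Omd cells. Fst, which encodes follistatin, an activin and BMP antagonist, stood at 284, 105, 193 and 229 CPM against 80.4, 28.7, 46.9 and 40.5 CPM.

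Among matrix genes, Ogn (osteoglycin, a small leucine-rich proteoglycan) stood at 1827, 1029, 1156 and 912 CPM against 435, 382, 342 and 123 CPM. Comp, cartilage oligomeric matrix protein, a collagen-binding protein of tendon and cartilage, stood at 889, 840, 1634 and 4087 CPM against 285, 233, 376 and 517 CPM. The fold between Chad/Omd and other gated cells was largest at 28 dpa for both genes, while the difference in CPM of Ogn was largest in unamputated. Col8a2, a short-chain collagen, stood at 185, 236, 173 and 127 CPM against 59.3, 71.6, 33.4 and 16.4 CPM, and Matn4, a matrilin, at 151, 464, 80.7 and 65.9 CPM against 66.8, 94.9, 30.0 and 23.6 CPM. Matn4 was the gene of this set that was highest at 12 dpa by the widest margin.

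Gpx3, the secreted glutathione peroxidase, stood at 850, 561, 1059 and 1677 CPM against 152, 205, 220 and 149 CPM, an 11.3-fold difference at 28 dpa, where osteoblast-sum cells held 973 CPM. The other named genes were Ndnf, Slc40a1 (the iron exporter ferroportin), the imprinted RNA H19, Kcnj15, Cpxm2, Clec11a (osteolectin, a bone-forming growth factor), Cemip2 (a cell-surface hyaluronidase), Rbp4, Ptgis (prostacyclin synthase), Fibin, Pdgfd and Megf6. Their folds over other gated cells ranged from 1.95 (Megf6 at 12 dpa) to 8.00 (Kcnj15 at 28 dpa). Pdgfd and Megf6 missed 2-fold at 12 dpa on the scale with 1 CPM added to both levels, as did Fibin in unamputated.

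Part of this profile was shared with cells kept by the osteoblast sum, and part was not. At 28 dpa Ptgis was at 312 CPM in Chad/Omd cells and 510 CPM in osteoblast-sum cells, Rbp4 at 316 and 357 CPM, Pdgfd at 93.2 and 163 CPM and Slc40a1 at 58.9 and 79.0 CPM. Comp was at 4087 CPM in Chad/Omd cells, 1139 CPM in osteoblast-sum cells and 916 CPM in tendon-sum cells (kept by Scx, Tnmd and Thbs4). Ogn was at 912, 263 and 182 CPM in the same 3 classes, and Cpxm2 at 105, 3.68 and 52.3 CPM. Wif1 was at 439 CPM in Chad/Omd and 128 CPM in osteoblast-sum cells at 28 dpa, and at 178 and 127 CPM in unamputated, where 117 of its 297 UMIs lay in keratin-rich cells described below and the cells rich in neither keratinocyte nor Schwann RNA held 125 CPM. At 12 dpa Fst (105 and 110 CPM), Gpx3 (561 and 525 CPM) and Comp (840 and 684 CPM) lay closer in these 2 classes.

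**Figure D2:**
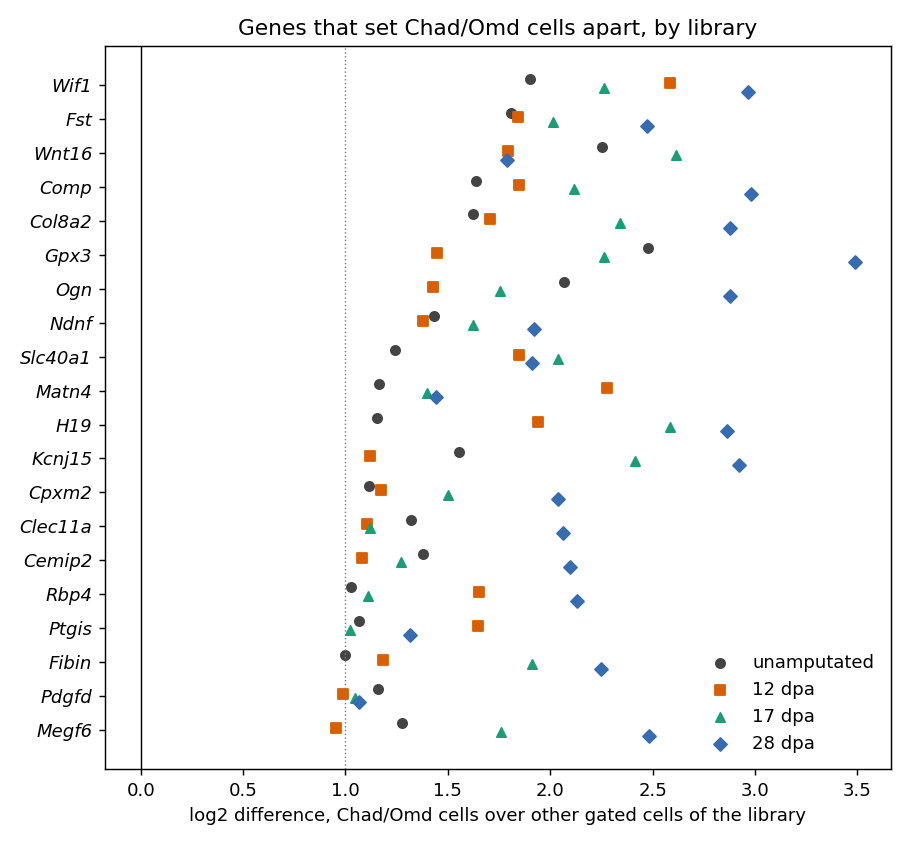
The log2 difference between Chad/Omd cells and the other gated cells of the same library (1 CPM added to both) for the 20 named genes, one marker per library; the dotted line marks 2-fold. Values lie between about 1 and 3.5, with Gpx3 at 28 dpa farthest right and Fibin, Pdgfd and Megf6 at or below the dotted line in 1 library.

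The periosteal part of the working label was not borne out by a list of 10 periosteal genes. Of the 7 or 8 list genes at 50 CPM or more in either set, 1 in unamputated, 12 and 17 dpa and 2 at 28 dpa were at least 2-fold higher than in other gated cells. Those at least 2-fold lower numbered 1, 0, 1 and 1 in unamputated, 12, 17 and 28 dpa. Over all genes 4.50%, 2.34%, 3.70% and 5.40% were higher. Ogn was the higher gene in every library, and Cd200, a surface glycoprotein of skeletal progenitors, joined it at 28 dpa (205 against 60.5 CPM). Postn, periostin, the namesake matricellular protein, was lower in Chad/Omd cells than in other gated cells in all 4 libraries: 1922 against 4198 CPM, 4734 against 5321 CPM, 1680 against 2894 CPM and 802 against 1238 CPM. Prrx1 and Aspn were higher by less than 2-fold in every library. The cells are therefore named by their leading genes and not as periosteal.

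Genes of other skeletal lists were present in part. Of the osteoblast list without the rule genes, 4 of 6, 0 of 2, 0 of 5 and 2 of 6 compared genes were at least 2-fold higher than in other gated cells and 1, 1, 2 and 0 lower. Runx2, the osteoblast transcription factor, stood at 1245, 384, 885 and 703 CPM against 540, 219, 493 and 202 CPM in other gated cells. Bglap, which encodes osteocalcin, stood at 521, 0, 138 and 355 CPM against 110, 1.03, 278 and 269 CPM, and Bglap2 at 458, 0, 193 and 379 CPM against 79.4, 0.897, 199 and 214 CPM. Spp1 (osteopontin) was lower in each library, at 220, 38.0, 382 and 2010 CPM against 1474, 112, 2816 and 2597 CPM. Of the osteocyte genes, Sost and Mepe were at 0 UMIs in all 4 libraries and Dmp1 at 0 UMIs in 3 of them with 1 UMI at 17 dpa. Sp7, Ibsp and Alpl form the rule's osteoblast sum, so their levels are a description. Ibsp stood between 5.98 and 30.8 CPM, below the other gated cells in each library, whereas Alpl stood at 305, 59.1, 227 and 222 CPM against 150, 51.1, 126 and 53.8 CPM.

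Of the tendon list without the rule genes Scx, Tnmd and Thbs4, 3 of 6, 1 of 4, 4 of 6 and 5 of 6 compared genes were at least 2-fold higher than in other gated cells and none lower. Fmod (fibromodulin) stood at 801, 1654, 1387 and 1395 CPM against 454, 833, 406 and 425 CPM. Cilp2, a matrix protein of cartilage and tendon insertions, stood at 91.2, 42.2, 80.7 and 195 CPM against 9.01, 9.52, 6.07 and 21.8 CPM, the largest fold of the list in unamputated. Of the cartilage list, 1, 1, 1 and 3 of 4 compared genes were at least 2-fold higher and none lower. Comp was the one in every library, joined at 28 dpa by Acan (aggrecan, 251 against 73.6 CPM) and Col11a1 (547 against 169 CPM). Sox9, the chondrocyte transcription factor, stood at 84.6, 38.0, 53.8 and 82.6 CPM, within 2-fold of other gated cells. Snorc had 57 UMIs at 17 dpa and 0 in the other libraries, and Col9a3 0 to 16 UMIs. Matn1 was at 0 UMIs in every library, Cnmd at 0 in 3 of 4 and Col2a1 between 0 and 4 UMIs. Endothelial list genes summed to 4 to 30 CPM.

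Some cells passed the rule with RNA of other tissues in them. Keratinocyte list genes summed to 451, 131, 589 and 1241 CPM in Chad/Omd cells and 1219, 564, 1345 and 3384 CPM in the other gated cells. Cells with at least 10 UMIs of the keratinocyte or of the Schwann list numbered 9, 0, 5 and 9, which left 77, 18, 120 and 137 with neither; this limit was set after the values were seen. In unamputated, 7 of the 8 keratin-rich cells were led by Scube1, 7 held under 10 UMIs of Col1a1 and Col1a2 together, and 7 lacked Pdgfra. Their median depth was 37675 UMIs, against 16686 UMIs in the cells with neither.

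The keratin-rich cells of unamputated carried nearly all the cell-cycle RNA of the 86. They held 193 of 200 Mki67 UMIs, 219 of 224 Top2a UMIs, 233 of 241 Lef1 UMIs and 68 of 68 UMIs of Shh, the Sonic hedgehog ligand. Krt5 stood at 1115 CPM and Epcam at 155 CPM in them, against 10.2 and 0 CPM in the cells with neither. Counts over all genes are therefore also given without these cells, as are those of gene lists that moved by over 1.5 times between libraries. Against other gated cells, 20 of 2380 genes were then at least 2-fold higher in every library, all 17 of the first set among them, and 5.48%, 2.34%, 4.01% and 5.50% were higher in single libraries.

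Cells led by Chad and cells led by Omd were compared in the 3 libraries with at least 10 of each. Of 3183 genes, Dio2 was at least 2-fold higher in the Chad-led and 15 genes in the Omd-led cells in all 3 libraries. The counts were 2 and 15 of 3172 genes without the keratin- and Schwann-rich cells, of which 1 and 13 were in the first sets. Dio2, the enzyme that activates thyroid hormone, stood at 134 against 42.7 CPM in unamputated, 278 against 131 CPM at 17 dpa and 204 against 20.8 CPM at 28 dpa. Igfbp5, an IGF-binding protein abundant in bone cells, stood at 4881 against 2086 CPM, 5545 against 3007 CPM and 2446 against 1327 CPM. Comp followed the same direction, at 2241 against 788 CPM, 2278 against 1325 CPM and 5117 against 3298 CPM, as did Gpx3.

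Osteoblast genes differed in how they divided. Bglap2 was higher in Chad-led cells in all 3 libraries, at 737 against 481 CPM, 370 against 107 CPM and 428 against 383 CPM; at 28 dpa the interval of its ratio, -0.12 to 0.44, held 0. Bglap was lower in Chad-led cells of unamputated (503 against 670 CPM) and higher at 17 dpa (198 against 109 CPM). Runx2 stood at 1452 CPM in Chad-led and 1427 CPM in Omd-led cells of unamputated, 860 and 894 CPM at 17 dpa and 859 and 576 CPM at 28 dpa. Omd-led cells held more Fbn1 (fibrillin, the backbone of microfibrils), at 377 against 73.7 CPM, 432 against 154 CPM and 412 against 114 CPM. Postn was also higher in them, at 2399 against 1561 CPM, 2144 against 795 CPM and 1116 against 545 CPM. Lrrc15, a membrane protein of matrix-producing fibroblasts, stood at 77.2 against 8.67 CPM, 180 against 35.6 CPM and 162 against 32.9 CPM.

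Slc2a1, Luzp2, Sbspon and Fgl2, 4 of the other genes of Omd-led cells (Luzp2 not without the keratin- and Schwann-rich cells), had higher levels in cells with an Itih5 UMI than in the rest in unamputated, 17 and 28 dpa. Itih5 is a gene of the inter-alpha-trypsin inhibitor family whose products bind hyaluronan. Cells with an Itih5 UMI numbered 15 of 86, 3 of 18, 19 of 125 and 22 of 146, or 17.4%, 16.7%, 15.2% and 15.1%. In the other gated cells the shares were 37.1%, 20.5%, 42.4% and 36.3%. Omd led 12, 2, 17 and 17 of the Chad/Omd cells with an Itih5 UMI. The split was made after the values were seen and has no test. With the keratin- and Schwann-rich cells left out, Fgl2 stood at 1290, 41.6, 747 and 900 CPM in Itih5 cells and 39.8, 0, 26.5 and 28.4 CPM in the rest. Slc2a1, the glucose transporter GLUT1, stood at 296, 0, 478 and 94.7 CPM against 3.46, 5.29, 12.3 and 20.1 CPM. At 12 dpa Itih5 cells held 0 of 18 Sbspon UMIs, and at 28 dpa they held 16 Slc2a1 UMIs and the rest 17.

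These sums rested on few cells. Fgl2 was found in 4 of 13 Itih5 cells in unamputated, 6 of 17 at 17 dpa and 7 of 19 at 28 dpa, and Slc2a1 in 4 cells of each. Luzp2 stood at 366, 307 and 136 CPM in the Itih5 cells of those libraries, from 3, 4 and 2 cells, and at 1.73, 0 and 3.55 CPM in the rest. Itgb4 and Cldn1, an integrin and a tight-junction gene, stand with Slc2a1 in the list of nerve sheath genes. They were also higher in Itih5 cells, at 126 and 43.9 CPM against 0 and 0 CPM at 17 dpa, from 3 and 4 cells. Wif1, of the same list, was lower in Itih5 cells in unamputated (75.1 against 134 CPM), 17 dpa (49.4 against 276 CPM) and 28 dpa (450 against 469 CPM). At 12 dpa Wif1 was higher in them, at 312 against 21.2 CPM, from 1 cell. Comp was lower, at 408 against 1195 CPM in unamputated and 3013 against 4682 CPM at 28 dpa, and Ogn was lower in unamputated and at 28 dpa but higher at 17 dpa (1312 against 1156 CPM). No cell type name is given to this subset.

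**Figure D3:**
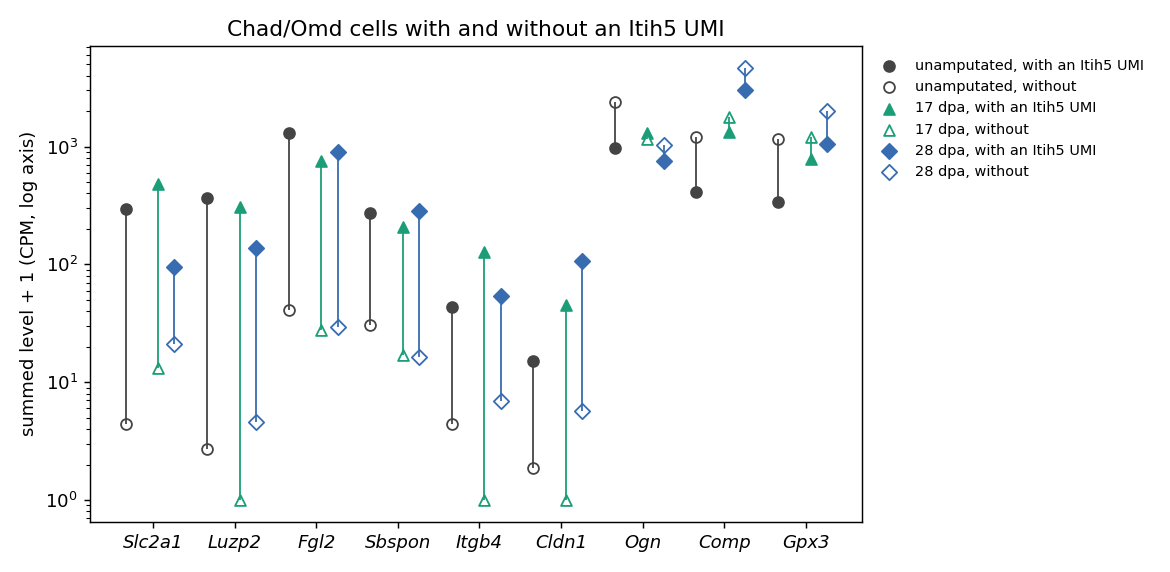
Summed level plus 1 CPM, on a log axis, of 9 genes in Chad/Omd cells with an Itih5 UMI (filled) and without (open) in unamputated, 17 and 28 dpa, with keratin- and Schwann-rich cells left out; 12 dpa, with 3 such cells, is not drawn. Fgl2 lies at 1290, 747 and 900 CPM in filled and at 39.8, 26.5 and 28.4 CPM in open markers, while Comp and Gpx3 are lower in the filled ones.

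In a map of each library built without the genes of the rule, the 15 nearest neighbours of a Chad/Omd cell were other Chad/Omd cells in 25.6%, 3.33%, 27.3% and 28.0% of cases, in the order unamputated, 12, 17 and 28 dpa. Their shares of the gate were 3.63%, 0.809%, 4.27% and 3.52%. Osteoblast-sum cells made up 35.0%, 12.2%, 18.9% and 14.7% of the neighbours, against 17.1%, 5.57%, 15.6% and 8.70% of the gate. Tendon-sum cells made up 9.38% of neighbours in unamputated (20.4% of the gate) and 42.2% at 12 dpa (35.9% of the gate). Chad/Omd and osteoblast-sum neighbours were above their share of the gate in all 4 libraries. At 28 dpa tendon-sum cells also made up 12.1% of neighbours (9.15% of the gate). Cells kept by Hapln1, Prg4 and Inhba made up 14.4% there (12.6% of the gate). Chad/Omd cells with no other Chad/Omd cell among their neighbours numbered 14 of 86, 12 of 18, 12 of 125 and 23 of 146. Cells kept by Pi16, Dpp4 and Pcolce2, a sum of adventitial fibroblast genes, were rare neighbours at 28 dpa, with 3.93% against 29.0% of the gate.

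At 28 dpa, Chad/Omd cells held more Comp, Dcn, Lum and Igfbp6 and less Col1a1, Postn, Mest and Igf1 RNA than in unamputated tissue. The other gated cells also held more Comp and Dcn (a gene of the gate) and less Col1a1, Postn and Mest. Postn stood there at 4198 CPM in unamputated and 1238 CPM at 28 dpa. Of 4174 genes at 50 CPM or more in the higher library, 203 were at least 2-fold higher and 389 at least 2-fold lower, 14.2% in all (4.86% higher and 9.32% lower), with a median log2 ratio of -0.16 over all genes. Without the keratin- and Schwann-rich cells 216 were higher and 356 lower, of which 153 and 253 were in the first set. With median-ratio scaling the split was 311 higher and 279 lower. The 28 dpa cells were also the shallowest, as the median depths above show.

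Comp went from 889 CPM in unamputated to 4087 CPM, a log2 ratio of 2.20 (2.12 to 2.29), and the other gated cells differed by 0.86. It was found in 74.4% and 89.0% of the Chad/Omd cells. Of the small leucine-rich proteoglycans outside the rule, 2 of 6 were at least 2-fold higher and 1 lower, with a median of 0.63, and 1 was higher and 1 lower without the keratin- and Schwann-rich cells. Dcn (decorin), a gene of the rule, stood at 2986, 1907, 4669 and 7748 CPM in unamputated, 12, 17 and 28 dpa, and Lum (lumican) at 3403, 2599, 4397 and 7149 CPM, log2 ratios of 1.38 and 1.07 at 28 dpa. In the other gated cells Dcn differed by 1.12 and Lum by 0.14.

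Prelp, which anchors collagen to basement membrane, was at 102 and 313 CPM, a ratio of 1.61, where other gated cells had 2.33. Ogn, the other way, was at 1827 and 912 CPM, a ratio of -1.001 (-1.10 to -0.90), and other gated cells had -1.81. Lum was at 0.92 and so under 2-fold without the keratin- and Schwann-rich cells. The proteoglycans outside the rule thus differed in direction among themselves.

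Of 20 collagen genes, 1 was at least 2-fold higher and 3 lower at 28 dpa, with a median of -0.54 in Chad/Omd and -0.999 in other gated cells. Col1a1, the main chain of fibrillar collagen of bone and scar, stood at 22999, 30415, 13626 and 10267 CPM in the 4 libraries. It was 1.16 log2 units lower at 28 dpa than in unamputated. In the other gated cells it stood at 21294 CPM in unamputated and 8176 CPM at 28 dpa. Col15a1, a basement membrane-zone collagen, was the exception, at 14.4, 16.9, 98.6 and 153 CPM, a ratio of 3.32 (2.79 to 4.09) where other gated cells had 0.08. It was among the 10 highest ratios at both 17 and 28 dpa, which share the unamputated library.

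**Figure D4:**
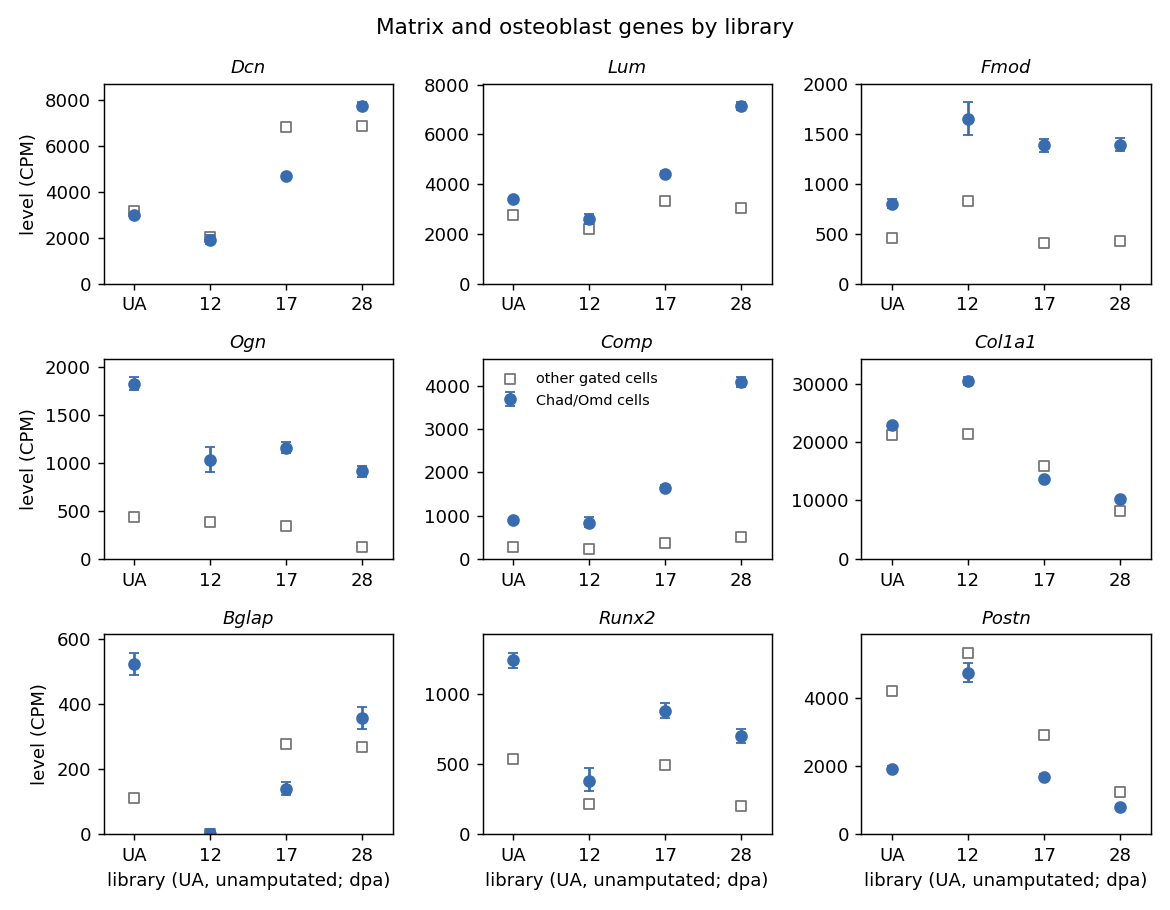
Summed CPM of 9 matrix and osteoblast genes in Chad/Omd cells (filled, 95% Poisson interval) and other gated cells (open) of each library, each panel on its own axis from 0. Comp reaches 4087 CPM at 28 dpa, Col1a1 is highest at 12 dpa with 30415 CPM, and Bglap is at 0 at 12 dpa.

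Of 16 IGF and growth genes, 4 were at least 2-fold higher and 7 lower at 28 dpa, with medians of -0.66 in Chad/Omd and -1.52 in other gated cells. Without the keratin- and Schwann-rich cells 2 of 14 were higher and 7 lower, with a median of -1.23. Igfbp6, which prefers IGF2, stood at 269, 283, 953 and 1313 CPM, and Igfbp7 at 974, 1806, 1235 and 2303 CPM. Igf1 stood at 377, 80.2, 232 and 107 CPM, so it was lower in each amputated library. The imprinted growth genes Mest, Peg3, Plagl1 and Igf2 were at 191, 145, 107 and 118 CPM in unamputated and at 26.4, 39.6, 26.4 and 46.6 CPM at 28 dpa; the ratio of Mest was -2.81, against -4.68 in other gated cells. Igfbp2 and Igfbp3 were past 2-fold with all cells and at -0.36 and 0.02 without the keratin- and Schwann-rich cells.

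Among Wnt pathway genes, 3 of 16 were at least 2-fold higher at 28 dpa and 2 lower. The inhibitors Sfrp4 and Wif1 were higher, at 405 against 122 CPM and 439 against 178 CPM (466 against 125 CPM for Wif1 without the keratin- and Schwann-rich cells), and the inhibitor Sfrp1 lower, at 47.5 against 128 CPM; its ratio of -1.41 was 0.09 in cells chosen without Omd. Lgr5, a receptor for R-spondins, stood at 37.8, 50.6, 123 and 120 CPM in the 4 libraries, where other gated cells had 43.9, 40.6, 22.3 and 20.8 CPM. Lgr5 was the member of the list that was higher in Chad/Omd and lower in other gated cells at both 17 and 28 dpa. Lef1, a Wnt-responsive transcription factor, was lower at 28 dpa with all cells (-3.66) and at 0.96 without the keratin- and Schwann-rich cells, which held most of its UMIs in unamputated.

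The BMP list had 3 of 16 genes at least 2-fold higher and 2 lower at 28 dpa. Id1, a direct target of BMP signalling, stood at 80.4, 46.4, 142 and 254 CPM, a ratio of 1.65 against 0.96 in other gated cells, and Bmp2 at 25.8 and 61.5 CPM. The matrix-degrading enzymes Mmp13 and Mmp14 were lower, at 720 against 1681 CPM and 461 against 976 CPM. Mmp3 (stromelysin) and Timp1, an inhibitor of these enzymes, were higher, at 359 against 124 CPM and 483 against 133 CPM, where other gated cells had ratios of -0.44 and 0.19. Among skeletal transcription factors Nfatc1 and Scx were higher and Sox5 was among those lower. Scx belongs to a sum in the rule, and Sox5 was at -0.08 without the keratin- and Schwann-rich cells.

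The 10 highest ratios at 28 dpa were Anxa8 (an annexin), Tnxb (tenascin-X), Col15a1, Fgf18, Ly6c1, Spp1, Sbsn, S100a4, Dbp and Clu, between 3.86 and 2.56. Fgf18, a growth factor of cartilage and bone development, stood at 4.80, 29.5, 69.5 and 54.5 CPM, and Clu (clusterin) at 25.2, 75.9, 47.1 and 154 CPM. Clu had a ratio of 2.56 where other gated cells had 0.21, whereas Dbp, a clock output gene, and Sbsn had 2.70 and 2.81 against 2.64 and 2.76. Spp1 (osteopontin) stood at 220, 38.0, 382 and 2010 CPM, with 21.6% of its 28 dpa UMIs in 1 cell. The highest genes were thus a mixture of those that differed by as much in other gated cells and those that differed less there; that contrast was not tested.

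The 10 lowest ratios were Fat3, Cxcl5, 5730522E02Rik, Adam12, Pclaf, Lpl, Adamts9, Fbn2, Basp1 and Mest, between -3.59 and -2.81. Fbn2, the fibrillin of developing tissue, stood at 158, 401, 56.8 and 19.3 CPM, and Adam12, a metalloprotease of activated stromal cells, at 182, 227.8, 77.7 and 16.7 CPM. Lpl, lipoprotein lipase, stood at 151, 29.5, 29.9 and 15.8 CPM. Fbn2 and Adam12 were highest at 12 dpa, whereas Lpl was lower in all 3 amputated libraries. Pclaf, a replication factor, was at 80.4 CPM in unamputated with all cells and 2.92 CPM without the keratin- and Schwann-rich cells, and was not past 2-fold lower there.

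**Figure D5:**
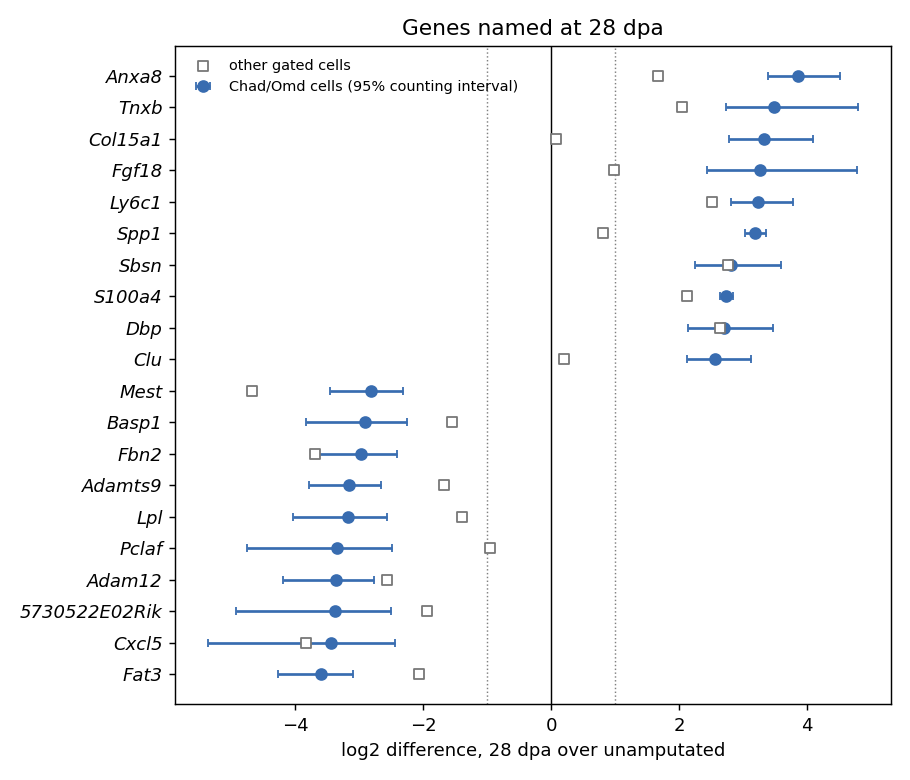
The log2 ratio of 28 dpa over unamputated (1 CPM added to both) for the 20 named genes in Chad/Omd cells (filled, 95% counting interval) and in other gated cells (open squares); dotted lines mark 2-fold. Col15a1 and Clu lie at 3.32 and 2.56 in Chad/Omd cells and at 0.08 and 0.21 in other gated cells, while Dbp and Sbsn nearly coincide.

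At 17 dpa fewer genes differed: 113 of 4115 were at least 2-fold higher and 172 lower, 6.93% in all (2.75% higher and 4.18% lower), with a median of -0.07. Without the keratin- and Schwann-rich cells 93 were higher and 131 lower, of which 81 and 87 were in the first set. With median-ratio scaling 143 were higher and 142 lower. Fgf18, Ccn3, Col15a1, Enpp2, Anxa8, S100a4, Aqp1, Gda, Ly6c1 and Tspan2 had the highest ratios, from 3.60 to 2.06. Ccn3, a matricellular protein of the CCN family, stood at 76.2, 46.4, 679 and 318 CPM in unamputated, 12, 17 and 28 dpa, a ratio of 3.14 (2.89 to 3.44) at 17 dpa against 0.91 in other gated cells. Enpp2 (autotaxin, which makes lysophosphatidic acid) stood at 112, 148, 689 and 556 CPM, and Aqp1, a water channel, at 242, 152, 1048 and 736 CPM.

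The lowest ratios at 17 dpa were Krt17, Pclaf, Stmn1, Ostn, Tenm2, Robo2, Tenm4, Lpl, Basp1 and Kitl, from -5.43 to -2.17. Krt17, Pclaf and Stmn1 stood at 171, 80.4 and 163 CPM in unamputated with all cells, and at 2.92, 2.92 and 11.0 CPM without the keratin- and Schwann-rich cells. Tenm2 was at 76.2 and 4.38 CPM in the same way and was not past 2-fold lower without them. Ostn (osteocrin, a peptide of bone-forming and muscle cells) stood at 61.2, 0, 2.24 and 14.9 CPM, and Tenm4, a transmembrane teneurin, at 285, 38.0, 56.8 and 56.3 CPM.

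Osteoblast genes at 17 dpa were 0 of 7 at least 2-fold higher and 2 lower, Bglap and Bglap2, with ratios of -1.91 and -1.24. In the other gated cells, which include the osteoblast-sum cells, both were at 1.32. Of 24 elastic fibre and matricellular genes, 6 were higher and 2 lower, among them Fn1 (fibronectin) at 966 and 2105 CPM and Tnn (tenascin-N) with a ratio of 1.37 against -0.80 in other gated cells. Cxcl12, the chemokine that binds CXCR4, stood at 381, 97.0, 121 and 116 CPM, a ratio of -1.65 at 17 dpa where other gated cells had 0.22. At 28 dpa it was -1.71 against -0.30, and 0.17 in cells chosen without Omd. Of 7 limb patterning genes, none was past 2-fold and all 7 were above 0, with a median of 0.59 against 0.07 in other gated cells; Hoxd13, the gene of the digit, was at 35.4 and 69.5 CPM.

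Prg4, which encodes lubricin, the lubricant of joint surfaces, is in a rival sum of the rule and was higher at 17 and 28 dpa than in unamputated. It stood at 7.2, 8.44, 101 and 157 CPM in Chad/Omd cells and at 42.1, 39.9, 247 and 335 CPM in the other gated cells. Its ratio at 28 dpa was 4.27, against 2.96 in the others. Its level was below that of the other gated cells in each library, as the rule requires cells with a high Hapln1, Prg4 and Inhba sum to be left out.

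At 12 dpa, with 18 cells, osteoblast RNA was low and that of 12 elastic fibre and matricellular genes was high. Among the 18 cells, 14 (77.8%) held UMIs of only 1 of Chad, Omd and Scube1, against 45.3% in unamputated. The median sum of these genes was 4 at 12 dpa and 15 in unamputated. Whether a different kind of cell passed the rule at 12 dpa was not tested. Of 4189 genes, 267 were at least 2-fold higher and 851 lower, 26.7% in all (6.37% higher and 20.3% lower), with a median log2 ratio of -0.29. Without the keratin- and Schwann-rich cells, all of which lay in the unamputated library in this comparison, 253 were higher and 761 lower, of which 213 and 638 were in the first set. With median-ratio scaling 469 were higher and 645 lower. Some genes given no change also passed 2-fold in simulated counts of this depth, described in the section on processing. Of 15 dissociation-response genes, 5 were at least 2-fold lower and 0 higher at 12 dpa, with a median of -0.71 (-1.02 in other gated cells), and their part in the result was not tested. All values at 12 dpa carry the difference in Xist and Y-linked RNA described above.

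All 7 osteoblast genes compared, 6 of them outside the rule, were at least 2-fold lower at 12 dpa, with a median of -2.68 in Chad/Omd and -2.42 in other gated cells. Runx2 stood at 384 CPM against 1245 CPM in unamputated, and Alpl, alkaline phosphatase and a rule gene, at 59.1 against 305 CPM. Bglap2 had 0 UMIs at 12 dpa and 763 in unamputated; against the limit of 3 UMIs that a count of 0 allows, it was at least 36.2-fold lower. Sfrp4, with 0 UMIs against 203, was at least 9.62-fold lower, and Ostn, with 0 against 102, at least 4.83-fold lower. Of 15 skeletal transcription factors, 9 were lower, Dlx5 among them, and 2 higher, Nfatc2 and the rule gene Scx.

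Of 24 elastic fibre and matricellular genes, 12 were at least 2-fold higher at 12 dpa and 4 lower, with a median of 0.94 in Chad/Omd and 0.17 in other gated cells. Mfap5, a microfibril glycoprotein, headed the 10 highest ratios there, at 1232 against 157 CPM, a ratio of 2.96 (2.73 to 3.22) where other gated cells had 0.56. Eln (elastin) stood at 165 against 29.4 CPM, Fbn1 at 734 against 274 CPM and Fbln2 (fibulin-2) at 599 against 120 CPM. Thbs2 stood at 1709 against 555 CPM and Postn at 4734 against 1922 CPM, a ratio of 1.30, which was -0.56 in the 8 cells of 12 dpa with a sum of Chad, Omd and Scube1 of at least 5. Of 1232 CPM of Mfap5 at 12 dpa, 24.7% came from 1 cell.

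Of 19 collagen genes, 6 were at least 2-fold higher at 12 dpa and none lower, with a median of 0.59 against 0.01 in other gated cells; without the keratin- and Schwann-rich cells 3 were higher and none lower. Col8a1 stood at 700 against 205 CPM and Col5a1, which sets the diameter of fibrils, at 1848 against 865 CPM. Col5a1 was at 0.86, and so under 2-fold, without the keratin- and Schwann-rich cells. The other highest ratios were C1qtnf3, Dbp, Lrrc17, Arap1, Crip1, Mfge8, Sod3 and Lrrc15, between 2.71 and 1.999; Lrrc15 stood at 224 against 55.2 CPM.

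Of 16 IGF and growth genes, 5 were at least 2-fold lower and 1 higher at 12 dpa, with a median of -0.34 against -0.29 over all genes. With the keratin- and Schwann-rich cells left out 7 were lower and 2 higher. Igf1 stood at 80.2 against 377 CPM, Igf2 at 12.7 against 118 CPM and Igfbp5 at 494 against 2262 CPM, while Igfbp3 stood at 236 against 22.8 CPM, with 28.6% of its 12 dpa UMIs in 1 cell. Cxcl14, a chemokine of resting stroma, stood at 21.1 CPM, from 5 UMIs, against 604 CPM. It stood at 578 CPM at 17 dpa and 329 CPM at 28 dpa. Mmp13 (collagenase 3), a marker of remodelling bone and cartilage, stood at 1681, 227.8, 1461 and 720 CPM across the 4 libraries and so was also lowest at 12 dpa.

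The remaining low ratios at 12 dpa were Nlgn1, Krt17, Pclaf, Tenm2, 5730522E02Rik and Lmnb1, each at 0 UMIs, and Fat3 at 1 UMI. They were at least 14.7-, 13.5-, 6.35-, 6.02-, 5.83- and 4.45-fold lower. Krt17, Pclaf and Tenm2 are genes whose unamputated level came mainly from the keratin-rich cells. The proliferation list, 5 of 5 lower at 12 dpa and 4 of 5 at 17 and 28 dpa, moved with the same cells. Without them 1 gene was compared at 12 dpa, Hmgb2, at -1.01 (-2.53 to 0.16), and 0 of 1 and 0 of 2 were past 2-fold at 17 and 28 dpa. At 28 dpa Mki67 was then at -0.04 and Top2a at 0.34.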

How the data were processed

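Single-cell RNA was measured in 4 libraries, 1 per group, with 10x Chromium chemistry per the labels. The deposited values were whole-number UMI counts per gene and barcode, for 32285 genes; per the submitters' processing notes they were made with Cell Ranger 7.1.0 on mm10. The annotation and the cell-calling settings are not given in the sources used here. Of the gene IDs, 32235 were found in GENCODE M21 (GRCm38), which gave the gene positions.

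Cells were chosen by the rule in the report, UMIs were summed over cells of a library and expressed as CPM of the summed UMIs, so all levels are relative. Because CPM from a tag at the end of a transcript does not depend on its length, levels were not divided by length. Ratios are log2 of CPM plus 1 over unamputated CPM plus 1, for genes at 50 CPM or more in the higher library, with exact binomial intervals; shares have Clopper-Pearson intervals and levels Poisson intervals, all at 95% and for counting error only, and a count of 0 was bounded by 3 UMIs. The 3 ratios share the unamputated library. No doublets were removed in the reported values. Scrublet, run as an alternative at 0.8% per 1000 barcodes, marked 10, 2, 5 and 18 of the cells in unamputated, 12, 17 and 28 dpa. Neighbours came from 20 principal components of 2000 variable genes without the rule's genes. Median-ratio scaling raised ratios by 0.21, 0.08 and 0.13 log2 units at 12, 17 and 28 dpa.

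Named genes were the 20 with the largest smallest-over-libraries ratio to other gated cells, and the 10 highest and 10 lowest ratios per comparison among genes found in at least 10% of cells and with at most 25% of UMIs from 1 cell in the higher library. Genes of the rule, sex-linked, mitochondrial and blood genes were left out, and in the comparisons also the mural, endothelial, immune, keratinocyte and Schwann lists. Of the gene lists, genes past 2-fold or of high level are named, apart from a few not reported here; Itih5 cells, keratin-rich cells and the genes used to describe them were picked after their values were seen. The members and lists were chosen with earlier results of these data known. On simulated counts, drawn from the summed unamputated profile, the ratios were tested with known answers. The 200 genes given a change had changes well past 2-fold. Of these, 199, 200 and 200 were called past 2-fold in the right direction at 12, 17 and 28 dpa. Unchanged genes called numbered 60, 0 and 0. The simulation held counting error only, with no variation between cells, animals or libraries. It therefore gives no error rate for the comparisons here. Python 3.11.15, numpy 2.4.6, scipy 1.17.1, pandas 2.3.3 and scanpy 1.11.5 were used.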

Additional observations from a re-analysis of the deposited data

Results flagged for a closer look

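Sex-linked transcripts were left out of the named genes. The Chad/Omd cells labelled 12 dpa held 92 Xist UMIs where those of the other 3 libraries held 0. These UMIs lay in 13 of 18 cells, none of which held a Y-linked UMI, although the label gives both sexes for each group. No Chad/Omd cell of any library held both kinds of transcript.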

How the results depend on the processing

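Each group held 1 library, so leaving out a replicate was impossible, and No paired analysis was possible because each group held 1 sample, so the groups shared fewer than 2 replicate numbers. Of 5010 values recomputed under alternatives, 3836 stayed within the limit of size set, 1152 moved past it and 22 were counted as a change of sign. Sign was checked only for single genes whose reported ratio was past 2-fold with an interval that excluded 0. A list median that changed sign is therefore counted by its size alone. Limits of size were the 95% interval of a share or ratio, 0.5 log2 units for a list median and 1.5 times for a count. The 20 named genes stayed past 2-fold in 13 of 15 alternatives at 12 dpa, 11 of 15 at 17 dpa and 13 of 15 at 28 dpa, with at least 19, 16 and 19 of 20 in the others. These counts use ratios with 1 CPM added. Without the keratin- and Schwann-rich cells Krt17, Pclaf and Tenm2 were below 12.7 CPM, the limit of 3 UMIs at 12 dpa, in unamputated. They are therefore not shown to be lower at 12 dpa there. The alternatives at 20 CPM or more and with no minimum leave the ratio of a single gene unchanged. Its outcome there was fixed in advance, also among the 5010 values. Median-ratio scaling shifts all ratios of a comparison by nearly the same amount. The named genes were picked as the most extreme in these same cells. List medians moved by over 0.5 log2 units in 138 of 1141 cases, and in 38 of 77 with Omd left out of the sum. Depth limits 12 dpa most, where 18 cells hold 237023 UMIs.

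The share of Chad/Omd cells was lowest at 12 dpa under every alternative. In the order unamputated, 12, 17 and 28 dpa it was 0.971%, 0.359%, 1.78% and 1.88% with Omd left out of the sum, 1.82%, 0.449%, 2.73% and 1.95% when the sum had to be at least 2 times each other, 2.23%, 0.454%, 2.63% and 2.34% with cells thinned to 3000 UMIs, and 0.719%, 0.259%, 1.44% and 1.25% of all barcodes kept. Without Chad in the sum it was 2.83% in unamputated, 2.87% at 17 and 1.69% at 28 dpa, and with a sum of at least 5 it was 0.359% at 12 and 2.84% at 28 dpa. Genes past 2-fold at 12, 17 and 28 dpa numbered 1118, 285 and 592 as reported, 2101, 982 and 1199 without Omd in the sum, 2201, 623 and 1071 at 20 CPM or more, 6921, 3183 and 3763 with no minimum, and 1990, 546 and 895 with cells thinned. With a sum at least 2 times each other they numbered 557 at 17 and 1016 at 28 dpa. The cause was not tested.

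Among single genes past 2-fold with an interval that excluded 0, signs changed as follows. Apart from the cells removed, the cause was not tested. With a sum of at least 5, Postn at 12 dpa was -0.56. Without Omd in the sum, Fst and Tnc at 12 dpa were 0.091 and 0.38, and Col11a1, Cxcl12, Sfrp1 and Tnc at 28 dpa were 0.25, 0.17, 0.091 and 0.26. Without Scube1 in the sum, Top2a at 12 dpa was 1.28, Hmgb2, Krt17 and Tenm2 at 17 dpa were 0.53, 0.035 and 0.80, and Hmgb2, Lef1, Mki67, Pclaf and Top2a at 28 dpa were 1.07, 0.24, 1.76, 0.90 and 2.35. Without the keratin- and Schwann-rich cells, an alternative chosen after seeing the data, Top2a at 12 dpa was 1.27, Hmgb2 and Lef1 at 17 dpa were 0.29 and 0.12, and Hmgb2, Lef1 and Top2a at 28 dpa were 0.19, 0.96 and 0.34.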
